A study of Mus musculus with 6 samples.

Results

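Chemokines and their receptors were examined in ATAC-seq peak lists of mouse hematopoietic stem cells, at the 57 protein-coding chemokine and chemokine receptor genes that could be placed on chromosomes 1 to 19 and X, of 21523 placed protein-coding genes. Members were chosen by symbol: a gene counted when its name began with Ccl, Cxcl, Ccr, Cxcr, Cx3c, Xcl1 or Xcr1 and went on with a number, which gave 58 genes. Of these, Ccl21c (gene ID 65956) is listed on chromosome 4 from 59769 to 60899, below the first peak of any list on that chromosome at 3050048, and was left out. The 57 placed genes were 19 receptors, 11 homeostatic ligands, 17 inflammatory ligands and 10 other ligands. A peak was assigned to a member when it overlapped the gene or the 10 kb on either side. A region made by merging peaks was assigned in the same way, so single peaks of it may lie beyond the 10 kb.

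The libraries labelled Dek_cKO (3 libraries) came from Dekfl/fl,Tie2-Cre mice, in which both Dek alleles carry loxP sites and a transgene with control DNA of Tek (Tie2) drives Cre in endothelial and blood cells. The libraries labelled Dek_fl (3 libraries) came from Dekfl/fl mice with the same loxP sites and no Cre transgene named. All mice were C57BL/6, 12 weeks old and untreated. About 20000 cells per library were sorted from bone marrow with the gate Lin-Sca-1+c-Kit+CD48-CD150+. Dek encodes a chromatin-bound nuclear protein. Whether each library had its own animal is not stated, so p-values below reflect only the variation among these libraries, part of which may be technical.

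Chemokines are small secreted proteins that guide cells along a gradient, and their receptors are membrane proteins that signal through inhibitory G proteins. Homeostatic chemokines are made without a trigger and keep cells in place or on their daily routes, whereas inflammatory chemokines are made on infection or injury and draw neutrophils, monocytes and T cells. In the bone marrow, CXCL12 from stromal cells holds stem cells in their niche through the receptor CXCR4. Most other receptors of the family are used by mature immune cells that arise from the stem cell.

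By replicate number, the Dek_cKO lists had 70756, 73173 and 27170 peaks and the Dek_fl lists 52451, 71555 and 23813. Replicate 3 of both groups was made with another score and threshold and is the shortest list of its group. The labels could not be checked at Dek itself, where a gene-end region was called in all 6 libraries. At Tek, a gene-body region (chr4:94745330-94746933) was called in no library labelled Dek_cKO and in all 3 libraries labelled Dek_fl, with folds of 9.20, 9.40 and 11.9, although the transgene with Tek control DNA belongs to the first genotype. Directions below are therefore between libraries as labelled. The windows of 8 of 8 stem cell marker genes and of 11 of 17 marker genes of other lineages held a peak in all 6 libraries, so a peak within 10 kb does not mark the cell type. At the start of the gene, 1 of 6 stem cell markers (Kit) and 0 of 12 lineage markers were called in all 6 libraries.

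Peaks lay within 10 kb of most members in both groups. A member had a peak in 49, 49 and 36 cases of 57 in Dek_cKO replicates 1, 2 and 3 and in 48, 48 and 27 cases in Dek_fl replicates 1, 2 and 3. The means were 44.7 ± 7.51 members in Dek_cKO and 41.0 ± 12.1 in Dek_fl (SD, n = 3 each), a difference of 3.67 that is smaller than the spread between replicates in either group. Of all protein-coding genes, 77.4% ± 7.13 had a peak in Dek_cKO and 76.0% ± 7.26 in Dek_fl. No member had a peak in all 3 libraries of one group and in none of the other. Over all genes that pattern was as rare, at 4 genes with a peak in Dek_cKO only (0.0186%) and 0 genes in Dek_fl only (0%). Without Dek_fl replicate 3, in which 27 members had a peak, the difference turned to -3.33 members.

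Where lists were short, a smaller share of members than of all genes had a peak. Members are shorter, with a median gene length of 5202 bp against 17370 bp, so their windows are shorter too. The shares within 10 kb, here and below, are not matched for window length. In replicate 3, 63.2% of members had a peak in Dek_cKO and 47.4% in Dek_fl, against 69.2% and 67.8% of all protein-coding genes in the same libraries. When every list was cut to its 23809 peaks of highest −log10 p-value, the share of members with a peak was 49.1%, 47.4% and 54.4% in Dek_cKO replicates 1, 2 and 3 and 52.6%, 47.4% and 47.4% in Dek_fl replicates 1, 2 and 3. Of all protein-coding genes, between 66.9% and 68.9% had a peak in those lists. The group difference at equal length was 0.667 members.

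**Figure D1:**
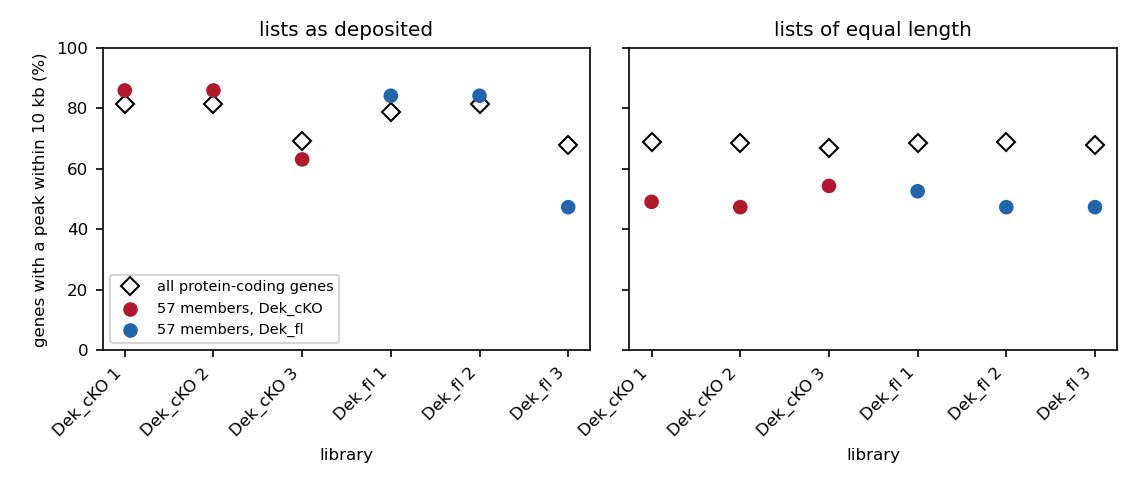
The share of genes with a peak within 10 kb (%, vertical axis) is plotted for the 57 members (filled circles, red for Dek_cKO and blue for Dek_fl) and for all protein-coding genes (open diamonds) in each library, for the lists as deposited (left) and for lists of equal length (right). At equal length the members lie between 47.4% and 54.4% and all genes between 66.9% and 68.9%, with no separation by group.

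Every one of the 19 receptors had a peak within 10 kb in at least 1 library, and 11 had one in all 6 (57.9%). Of all protein-coding genes, 65.8% had a peak in all 6 libraries and 17.2% in none, and of all 57 members 45.6% and 14.0%. Among ligands the split was uneven. Of the inflammatory ligands, 9 of 17 (52.9%) had a peak in all 6 libraries, whereas of the homeostatic ligands 2 of 11 did. Of the other ligands, 4 of 10 did. No peak in any library was found for 8 ligands: the homeostatic Ccl19, Ccl21b, Ccl21d and Ccl27b, the inflammatory Ccl8, Ccl12 and Ccl20, and Xcl1, the lymphotactin that acts on XCR1. CCL19 and the CCL21 proteins call CCR7-bearing cells into lymph nodes, and CCL20 attracts cells with CCR6. An uncalled window is not shown to be closed, because the reads behind the lists are not known.

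Some of the uncalled genes on chromosome 4 lie in duplicated sequence. The start window of Ccl21d (250 bases before to 50 after the gene start) is 99.0% identical to that of Ccl21a, and a start window of Ccl27b is 95.3% identical to one of Ccl27a. The sources used here do not state how reads with more than 1 match were treated, so calls at Ccl21a, Ccl21d, Ccl27a and Ccl27b are uncertain as to which copy they belong to. The single region beside Ccl21a (chr4:42766450-42767337) had percentiles of 98.8, 99.9 and 16.0 in Dek_cKO and of 78.4 and 99.9 in Dek_fl replicates 1 and 2, with no call in Dek_fl replicate 3. A percentile is the position of a peak's fold over background among all peaks of its own list, and the fold values are the authors'.

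**Figure D2:**
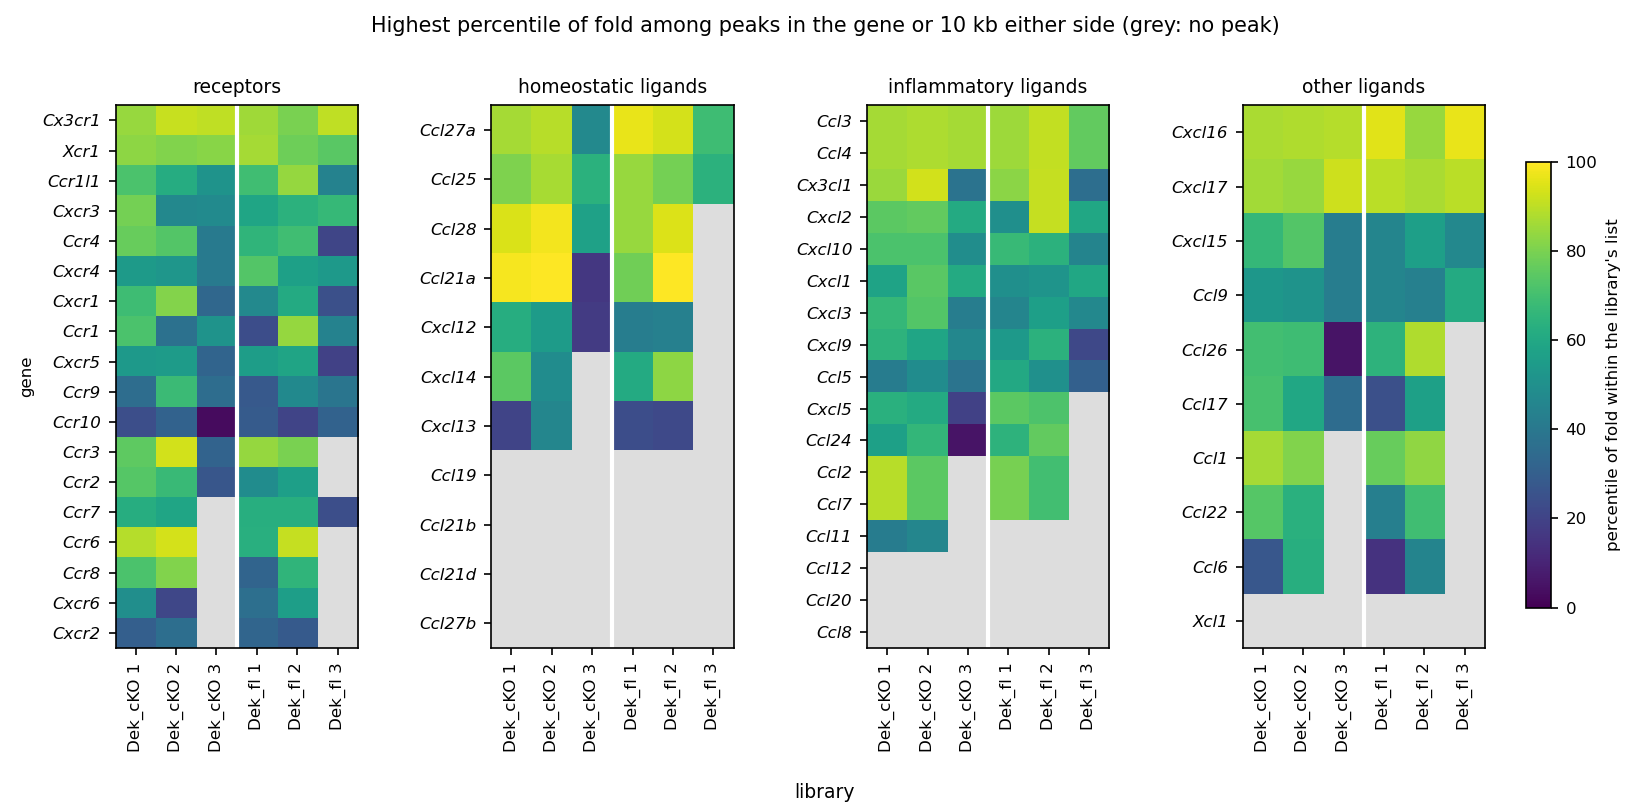
Each row is a gene, grouped by role, and each column is a library, with the 3 Dek_cKO libraries left of the 3 Dek_fl libraries. Colour gives the highest percentile of fold among the peaks in the gene or 10 kb either side, and grey means no peak: Cx3cr1, Xcr1, Ccl3, Cxcl16 and Cxcl17 are high in every library, and 8 ligands are grey throughout.

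At the starts of the genes, calls were also less common among members than among all genes. RefSeq start windows were at hand for 43 members. A peak overlapped the start in all 6 libraries at 9 of 43 members (20.9%), against 48.0% of 17274 protein-coding genes, and in no library at 23 members (53.5%), against 34.4%. The 9 genes were the receptors Cxcr4, Cx3cr1, Ccr1 and Cxcr3, the homeostatic ligands Ccl25 and Ccl27a, and the inflammatory ligands Ccl3, Cxcl2 and Cxcl3. By library, 16, 18 and 11 members had a peak at the start in Dek_cKO replicates 1, 2 and 3 and 16, 18 and 9 in Dek_fl replicates 1, 2 and 3. The 2 members behind the gap in replicate 3 were Cxcl12 and Cxcl10, called at the start in 3 Dek_cKO and 2 Dek_fl libraries each. At Ccr2, the CCL2 receptor that brings monocytes out of the marrow, the start was reached by a peak in 2 Dek_cKO libraries and in 0 Dek_fl libraries, although the region that covers it was called in 3 and 2.

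Promoters of 5 genes are printed to show this range: a receptor and its ligand (Cxcr4, Cxcl12), 2 inducible CXC ligands with and without a call in every library (Cxcl2, Cxcl10), and a ligand with no peak at all (Ccl8). The sequences are from RefSeq on GRCm38.p6 (mm10), give the 250 bases before the annotated start from 5′ to 3′ on the strand of the gene, and carry in capitals the matches, on either strand, to the motifs searched.
Cxcr4: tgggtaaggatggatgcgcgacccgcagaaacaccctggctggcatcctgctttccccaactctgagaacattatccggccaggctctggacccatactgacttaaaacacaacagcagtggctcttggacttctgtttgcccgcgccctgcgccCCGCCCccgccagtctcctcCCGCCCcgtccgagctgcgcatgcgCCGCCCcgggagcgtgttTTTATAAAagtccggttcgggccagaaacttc
Cxcl12: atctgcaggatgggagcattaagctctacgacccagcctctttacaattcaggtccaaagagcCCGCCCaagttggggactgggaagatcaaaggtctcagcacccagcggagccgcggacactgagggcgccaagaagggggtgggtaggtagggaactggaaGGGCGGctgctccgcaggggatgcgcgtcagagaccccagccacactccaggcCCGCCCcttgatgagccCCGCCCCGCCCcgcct
Cxcl2: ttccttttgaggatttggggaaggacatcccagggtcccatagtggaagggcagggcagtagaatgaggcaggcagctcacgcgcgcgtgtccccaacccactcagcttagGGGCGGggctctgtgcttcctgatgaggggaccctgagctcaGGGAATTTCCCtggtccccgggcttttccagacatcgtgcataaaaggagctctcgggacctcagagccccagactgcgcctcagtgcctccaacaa
Cxcl10: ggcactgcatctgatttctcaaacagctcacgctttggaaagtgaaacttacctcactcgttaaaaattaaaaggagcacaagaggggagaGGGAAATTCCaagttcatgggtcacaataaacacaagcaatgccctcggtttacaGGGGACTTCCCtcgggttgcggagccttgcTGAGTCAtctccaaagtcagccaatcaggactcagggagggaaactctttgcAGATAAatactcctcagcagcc
Ccl8: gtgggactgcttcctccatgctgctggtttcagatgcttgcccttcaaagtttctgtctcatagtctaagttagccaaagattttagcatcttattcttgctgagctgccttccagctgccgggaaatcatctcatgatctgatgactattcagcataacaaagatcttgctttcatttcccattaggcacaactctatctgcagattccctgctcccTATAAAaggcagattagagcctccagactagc
The windows are, in the same order, chr1:128592300-128592549 (minus strand), chr6:117168285-117168534 (plus), chr5:90903649-90903898 (plus), chr5:92348890-92349139 (minus) and chr11:82114935-82115184 (plus). Capitals in Cxcr4 mark 3 GC boxes (GGGCGG or its complement) and a TATA box (TATAAA, found on both strands with an overlap) whose first base on the gene's strand lies 30 bases before the start. Capitals in Cxcl12 mark 5 GC boxes, 2 of which overlap. Capitals in Cxcl2 mark 1 GC box and a pair of overlapping NF-kappaB motifs. Capitals in Cxcl10 mark NF-kappaB motifs at 2 places, an AP-1 motif (TGANTCA) and a GATA motif (AGATAA). In Ccl8 the capitals mark a TATA box alone.

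Chemokine and receptor promoters held fewer CpG pairs than promoters at large. The 50 member windows had a median of 3.5 CpG pairs in 250 bases and the 21045 windows of all protein-coding genes a median of 10. Even the 10 member windows called in all 6 libraries had a median of 6.5, against 18 in all windows so called, and their median GC content was 53.4%, against 61.2%. The highest values among those windows were 19 CpG pairs at Cxcr4, with a GC content of 61.2%, and 45 at Ccl25, whose start lies beside that of the RNA-binding protein gene Elavl1, so the peak there covers both. A TATA box stood in 26.0% of member windows and in 11.7% of all windows, and a GC box in 14.0% and 43.1%. The NF-kappaB motif stood in 20.0% of member windows and in 7.99% of all windows, at Cxcl1, Cxcl2, Cxcl3, Cxcl10, Ccl1, Ccl9, Ccl20, Ccr1, Ccr3 and Ccr6. The GATA motif was found in 18.0% and 8.84%, AP-1 in 12.0% and 6.17%, RUNX (TGTGGTT) in 8.0% and 3.84%, and ETS (CCGGAAG) in 4.0% and 9.08%. A match describes the letters only.

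Of all union regions, made by merging peaks that share at least 1 bp, 144 of 84592 lay within 10 kb of a member. By place, 59 lay outside protein-coding genes, 25 in the body of a member and 20 over a start window of a member. Another 8 lay in the body of a neighbouring gene and 4 at the end of one. The other 28 lay at an end of a member and over no start window of a member. Some members had no start window at hand, so some of the 28 may lie at a start. The tables give gene bounds without exons or UTRs, so these could not be told apart. Of the member regions, 26 (18.1%) were called in all 6 libraries, against 23.3% of all regions. Another 54 (37.5%) were called in all of replicates 1 and 2 and in neither replicate 3, against 25.7% of all regions.

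The chemokine receptor CXCR4 keeps stem cells in the marrow, and Cxcr4 (gene ID 12767, chr1:128588199-128592299) had a single region in its whole window. It covers the start of the gene (chr1:128590741-128593394) and was called in all 6 libraries. Its percentiles of fold were 54.6, 52.6 and 41.0 in Dek_cKO replicates 1, 2 and 3 and 73.3, 56.9 and 54.1 in Dek_fl replicates 1, 2 and 3. Dek_cKO replicate 1 lay within the Dek_fl range, just above its lowest library, so the groups overlap, although Dek_cKO was lower within each replicate number. The rank score, a normal score of the rank of fold among the 19683 regions called in all 6 libraries, averaged -0.820 in Dek_cKO and -0.342 in Dek_fl. The difference of -0.478 (SE 0.320, n = 3 per group) did not pass the limma test with Benjamini-Hochberg adjustment over all those regions (adjusted p = 1).

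Among the other receptors, Cx3cr1, which encodes the fractalkine receptor of monocytes and microglia, had 3 shared regions, more than any other member. The one in its gene body (chr9:120054475-120055534) had percentiles of 84.4, 91.7 and 89.3 in Dek_cKO and of 85.8, 79.8 and 90.2 in Dek_fl. Every library ranked it among its stronger peaks, and the groups overlapped. The region at its start (chr9:120067706-120069080) had percentiles of 74.9, 63.3 and 41.4 in Dek_cKO and of 60.0, 57.2 and 34.0 in Dek_fl, higher in Dek_cKO within each replicate number but overlapping as groups. Its rank score differed by 0.220 (SE 0.296, adjusted p = 1, limma). The region outside genes (chr9:120042799-120044118) spread most, with percentiles of 51.7, 43.2 and 90.3 in Dek_cKO and of 23.8, 78.3 and 74.9 in Dek_fl.

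Xcr1, the XCL1 receptor of cross-presenting dendritic cells, shares a gene-end region with Fyco1 (chr9:123850840-123852988). Its percentiles were 83.0, 81.1 and 82.3 in Dek_cKO and 86.4, 77.9 and 74.3 in Dek_fl. The region holds the start window of Fyco1 and not that of Xcr1. Cxcr3, the receptor for CXCL9 and CXCL10 on effector T cells, was called at its start (chrX:101732781-101734422) with percentiles of 79.0, 46.6 and 47.9 in Dek_cKO and of 59.0, 64.3 and 67.1 in Dek_fl. Ccr4, a receptor of type 2 helper and regulatory T cells, had a shared region outside the gene (chr9:114506603-114508113) with percentiles of 76.7, 73.2 and 40.8 in Dek_cKO and of 65.5, 69.5 and 21.0 in Dek_fl. It had the largest positive difference among the 26 shared regions, 0.307 (SE 0.329, adjusted p = 1, limma).

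The remaining shared receptor regions were weaker. The mean percentile was 52.1 at the start of Ccr1, a receptor of CCL3 and CCL5 on myeloid cells, and 42.3 in the body of Ccr9, which guides cells to the gut and thymus through CCL25. It was 29.6 in the body of Cxcr5, the follicle-homing receptor of B cells. The end of Ccr10, a skin-homing receptor, is shared with Cntnap1 (chr11:101173557-101174376) and had percentiles of 18.1, 18.2 and 2.79 in Dek_cKO and of 28.8, 9.53 and 31.6 in Dek_fl. Its rank score differed by -0.620 (SE 0.421, adjusted p = 1, limma).

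On chromosome 9, the regions called in all 6 libraries between Ccr9 and Ccr2 were those in the body of Ccr9, at the end of Xcr1 and at the start of Ccr1. Near Ccr3, a receptor of eotaxins on eosinophils, and near Ccr2, Dek_fl replicate 3 had no call. The region at the start of Ccr2 (chr9:124101895-124103994) had percentiles of 38.1, 63.8 and 26.9 in Dek_cKO and of 23.8 and 36.5 in Dek_fl replicates 1 and 2. Dek_cKO replicates 1 and 3 lay within or close to the Dek_fl range, and Dek_cKO replicate 2 lay above it.

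Cxcl12 (gene ID 20315, chr6:117168535-117181368), the ligand of CXCR4, had 3 regions and none called in all 6 libraries. The region over its start (chr6:117166866-117169776) had percentiles of 62.3, 54.7 and 17.4 in Dek_cKO and of 42.4 and 43.6 in Dek_fl replicates 1 and 2, with no call in Dek_fl replicate 3. Within replicates 1 and 2 both Dek_cKO values lay above both Dek_fl values. In a fit of those 4 libraries over the 47491 regions that all of them hold, the rank score differed by 0.280 (SE 0.349, adjusted p = 1, limma).

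Of the other homeostatic ligands, Ccl25 and Ccl27a were called in every library. CCL25 serves the thymus and small intestine. The region at its start (chr8:4324267-4325989), which also covers the start of Elavl1, had percentiles of 70.7, 82.8 and 63.9 in Dek_cKO and of 84.7, 79.1 and 64.4 in Dek_fl. The region at Ccl27a, a skin chemokine (chr4:41772978-41774824), had percentiles of 86.4, 89.4 and 46.9 in Dek_cKO and of 96.6, 93.4 and 69.1 in Dek_fl. Each Dek_cKO value was below the Dek_fl value of the same replicate number, and the groups overlapped. Its rank score difference was the most negative of the 26, at -0.695 (SE 0.389, adjusted p = 1, limma). A region at the ends of Il11ra1 and Galt within 10 kb of Ccl27a (chr4:41760049-41761595) overlaps a start window of Il11ra1. It was the weakest of the 26, with a mean percentile of 15.8 and a difference of 0.250 (SE 0.379, adjusted p = 1, limma).

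Among the inflammatory ligand starts called in all 6 libraries, that of Ccl3 had the highest mean percentile, at 76.4. Ccl3 encodes a macrophage inflammatory protein that acts on CCR1. The region at its start (chr11:83648249-83649904) had percentiles of 69.0, 78.8 and 86.5 in Dek_cKO and of 77.0, 87.6 and 59.4 in Dek_fl. A second region outside genes, within 10 kb of both Ccl3 and Ccl4 (chr11:83639470-83640994), had percentiles of 86.6, 87.8 and 81.0 in Dek_cKO and of 85.5, 90.8 and 76.1 in Dek_fl. The groups overlapped at both, with differences of -0.0112 (SE 0.386) and -0.0552 (SE 0.285). Cx3cl1, which encodes the membrane-bound fractalkine, had a shared region in its body (chr8:94778433-94779737), with percentiles of 66.9, 71.2 and 38.1 in Dek_cKO and of 82.7, 84.2 and 35.9 in Dek_fl.

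Cxcl1, Cxcl2 and Cxcl3, with Cxcl5 and Cxcl15, form a run of 5 genes on chromosome 5 whose products include the neutrophil attractants that act on CXCR2. The start of Cxcl2 (chr5:90902609-90904000) had percentiles of 43.1, 43.4 and 61.3 in Dek_cKO and of 49.9, 42.8 and 59.5 in Dek_fl. The start of Cxcl3 (chr5:90785473-90786181) was weaker, with percentiles of 38.4, 31.4 and 4.48 in Dek_cKO and of 29.0, 41.4 and 24.2 in Dek_fl, and a difference of -0.461 (SE 0.321, adjusted p = 1, limma). A region between Cxcl3 and Cxcl15 (chr5:90789205-90790095) had percentiles of 66.8, 73.3 and 42.2 in Dek_cKO and of 45.4, 56.3 and 46.8 in Dek_fl, and a difference of 0.292 (SE 0.315, adjusted p = 1, limma). The region at the start of the platelet chemokine gene Pf4, within 10 kb of Cxcl5 (chr5:90771319-90773019), had percentiles of 63.3, 61.1 and 19.2 in Dek_cKO and of 74.8, 71.9 and 42.9 in Dek_fl. It was lower in Dek_cKO within each replicate number, and its difference of -0.600 (SE 0.308) had an adjusted p of 1 (limma). The peak of this merged region in Dek_fl replicate 3 lies beyond the 10 kb, so Cxcl5 had no peak within 10 kb in that library.

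The only member region called in all 3 Dek_cKO libraries and in no Dek_fl library lay beside Cxcl1 (gene ID 14825). It is 406 bp wide (chr5:90881631-90882036), outside protein-coding genes, 9209 bp from the nearer end of Cxcl1. Its folds were 3.25, 4.06 and 7.98 in Dek_cKO replicates 1, 2 and 3, with percentiles of 17.8, 29.3 and 46.2 and −log10 q-values of 6.10, 7.55 and 12.8, and it was uncalled in every Dek_fl library. Over all regions, 88 of 84592 (0.104%) were called in this way, and 3 (0.00355%) in the opposite way, and 0 of those 3 lay near a member. One region in 144 is 0.694%, a count too small to set against that background. The region was not called in all 3 Dek_cKO libraries when lists were cut to equal length or held to a −log10 q-value of at least 10.

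At the start of Cxcl1 itself (chr5:90890708-90891631) the percentiles were 58.2 and 74.3 in Dek_cKO replicates 1 and 2 and 3.73 and 51.7 in Dek_fl replicates 1 and 2, with no call in either replicate 3. This region was singled out after its values were seen. In the fit of replicates 1 and 2 its rank score differed by 1.297 (SE 0.422), with an unadjusted p of 0.00517 and an adjusted p of 1 (limma). It was the one member region of 95 with an unadjusted p under 0.05 in that fit. Over all 47491 regions of the fit, 1163 were higher and 567 lower at that level.

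**Figure D3:**
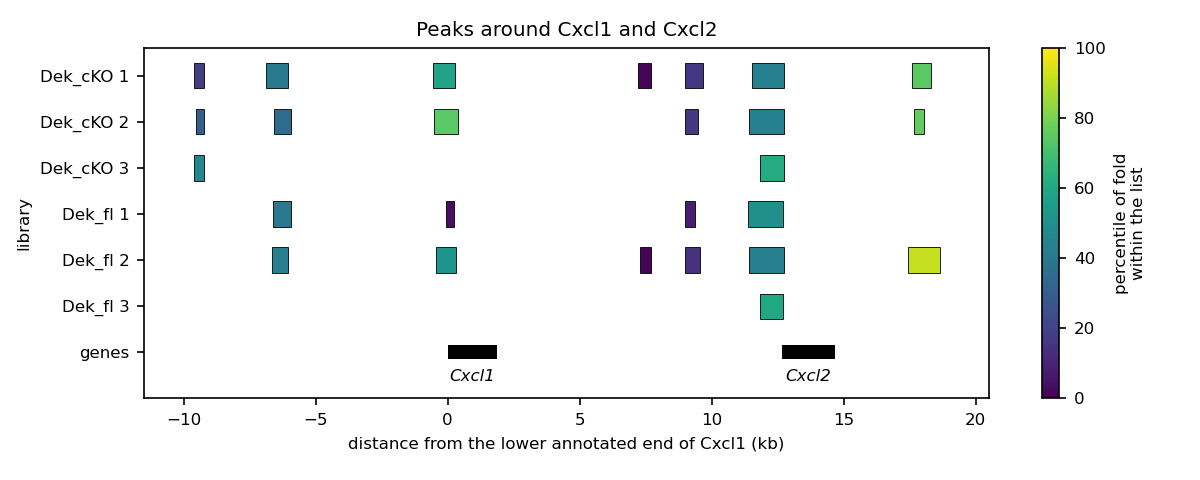
Peaks around Cxcl1 and Cxcl2 are drawn as boxes by library (rows, Dek_cKO above Dek_fl) against the distance from the lower annotated end of Cxcl1 (kb), coloured by percentile of fold, with the genes as black bars. The leftmost boxes, 9209 bp or more from Cxcl1, are present in the 3 Dek_cKO rows only, and the peak at the start of Cxcl2 is present in all 6 rows.

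Cxcl10, an interferon-induced ligand of CXCR3, had its shared region not at the start but inside the neighbouring gene Art3 (chr5:92352880-92354208). The percentiles there were 71.8, 71.5 and 49.1 in Dek_cKO and 53.4, 64.1 and 45.1 in Dek_fl, higher in Dek_cKO within each replicate number. The difference was 0.243 (SE 0.291, adjusted p = 1, limma). At the start of Cxcl10 (chr5:92348284-92349579) the percentiles were 54.6, 47.5 and 1.39 in Dek_cKO and 67.5 and 54.8 in Dek_fl replicates 1 and 2, so the call in Dek_cKO replicate 3 was near the bottom of its list.

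Among the other ligands, Cxcl16 and Cxcl17 had the shared regions of highest mean percentile. No start window of either ligand was at hand. Both regions end below the lower bound of the ligand gene (70454389 for Cxcl16 and 25400053 for Cxcl17), so neither reaches the start of its ligand. The region at the end of Cxcl16, the ligand of CXCR6, holds the start of Med11 (chr11:70451743-70453883) and had percentiles of 87.5, 88.2 and 88.8 in Dek_cKO and of 95.5, 84.8 and 96.9 in Dek_fl. The region near Cxcl17 (chr7:25394939-25396631) lies in the body of Lipe and overlaps a start window of that gene. Its percentiles were 86.2, 84.5 and 92.4 in Dek_cKO and 89.6, 87.2 and 89.8 in Dek_fl. The region over Ccl9 (chr11:83577023-83579406) was called in all 6 libraries with a mean percentile of 39.7, although its peaks reached the start of the gene in 1 Dek_cKO and 2 Dek_fl libraries.

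**Figure D4:**
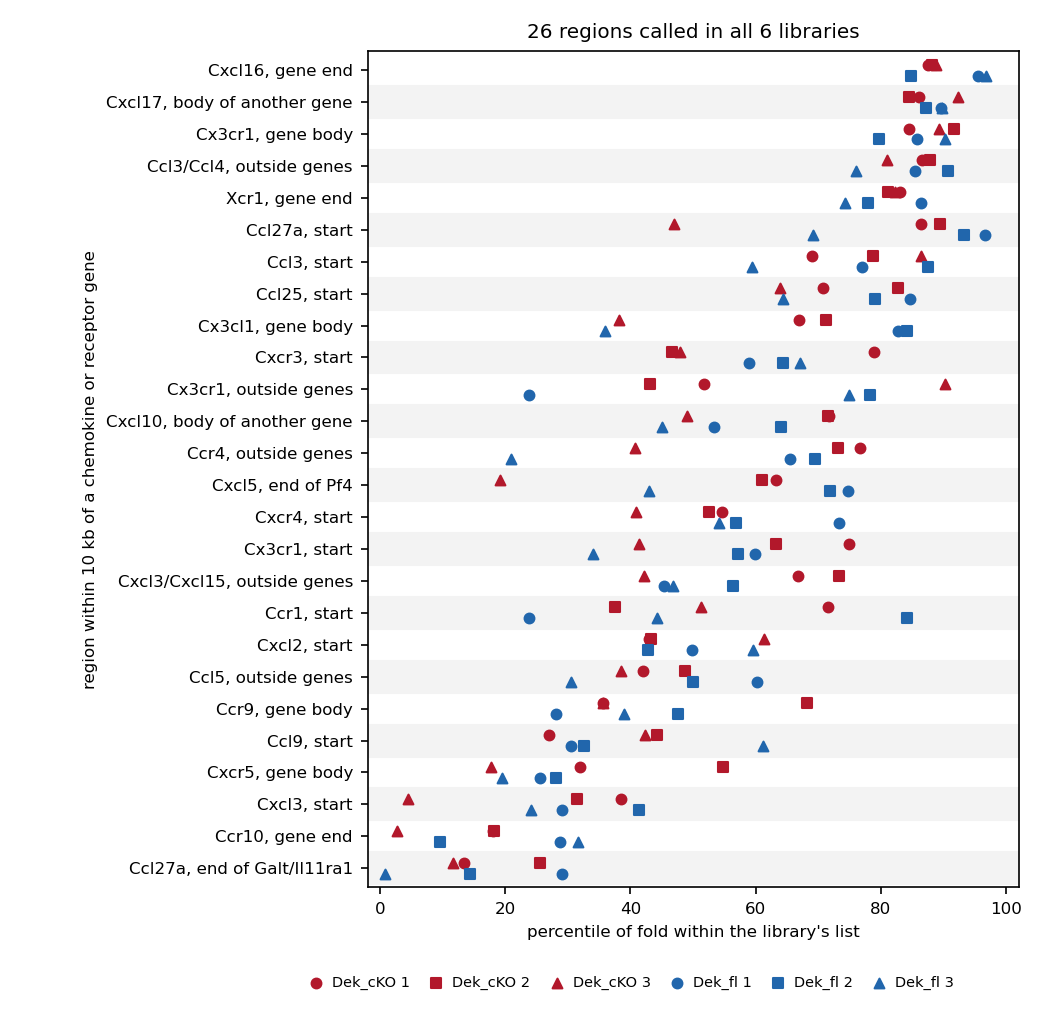
The 26 member regions called in all 6 libraries are listed from the highest mean percentile of fold (top, Cxcl16) to the lowest (bottom, the region near Ccl27a at Galt and Il11ra1). Each point is 1 library, with the Dek_cKO points (red) drawn above the Dek_fl points (blue) and the shape giving the replicate number. Red and blue points overlap in every row.

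Across the 26 shared regions the groups overlapped without exception. In 0 of 26 did every Dek_cKO percentile lie above every Dek_fl percentile, a pattern met by 472 of 19683 shared regions (2.4%), and in 0 of 26 did every one lie below, a pattern met by 138 (0.701%). The limma test called 0 member regions higher and 0 lower (0% of all 19683 regions in either direction). No member region had an unadjusted p under 0.05, and over all regions 68 were higher and 19 lower at that level. That fit has no term for the processing batch, so differences between batches enter its error and make it cautious. With the batch as a term, 2 of 26 member regions had an unadjusted p under 0.05 (limma), both lower in Dek_cKO. Over all regions 545 were then higher and 302 lower at that level, and the lowest adjusted p was 0.982. The median rank score difference was -0.118 over the 26 regions, with 9 of 26 positive, and -0.0178 over all shared regions, with 47.3% positive. The sign of the members' median rested on single libraries: it was 0.00479 without Dek_cKO replicate 1, 0.0501 without Dek_cKO replicate 2 and 0.0394 without Dek_fl replicate 3.

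By role, the median difference was 0.00908 for 11 receptor regions, with 6 positive. It was -0.233 for 3 homeostatic ligand regions, -0.162 for 9 inflammatory ligand regions and -0.222 for 5 other ligand regions, with 1, 2 and 1 positive. Regions near members of 2 roles count under both. The difference between roles was not tested.

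**Figure D5:**
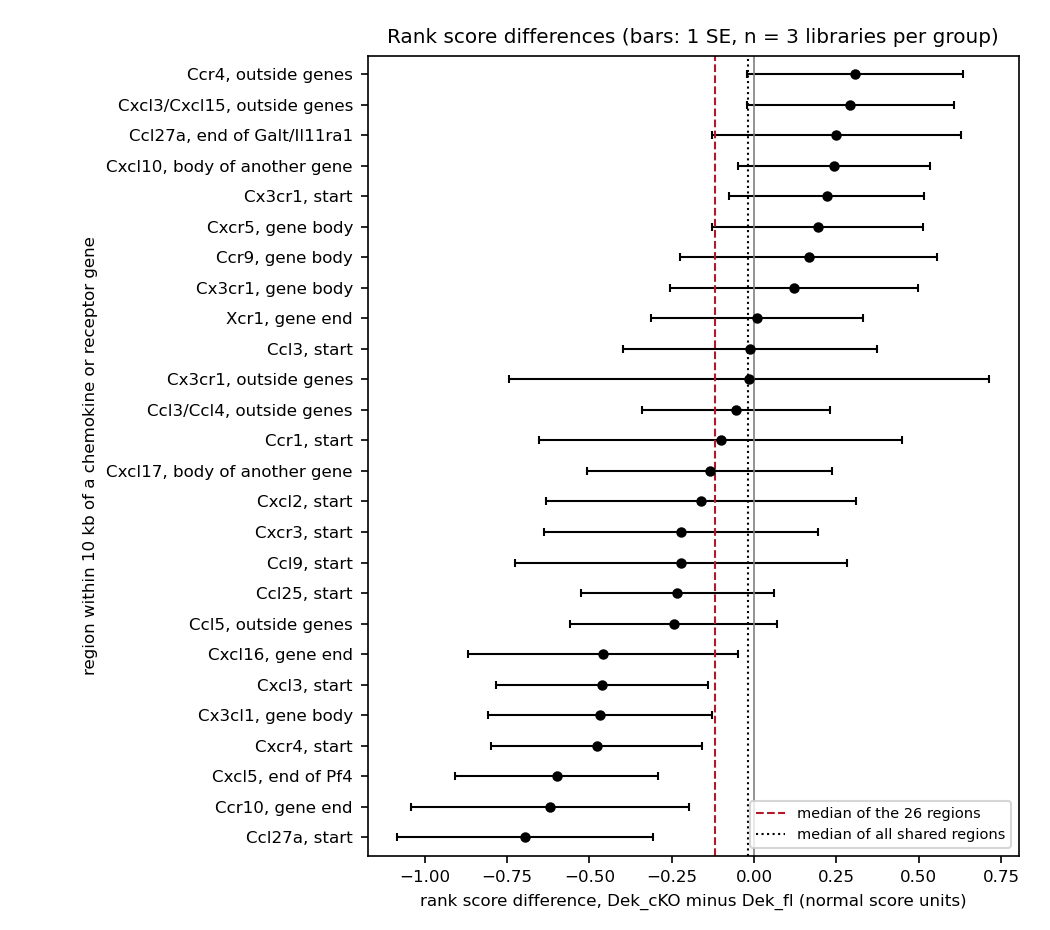
The rank score difference (Dek_cKO minus Dek_fl, normal score units, horizontal axis) is plotted for the 26 member regions called in all 6 libraries, with bars of 1 SE (n = 3 per group). Points run between -0.695 (Ccl27a, start) and 0.307 (Ccr4), and the dashed and dotted lines mark the medians of the 26 regions and of all shared regions, at -0.118 and -0.0178.

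In replicate 3, more member regions were called in Dek_cKO than in Dek_fl. There, 19 member regions (13.2%) were called in Dek_cKO and not in Dek_fl, and 1 (0.694%), at the end of the lymph node homing receptor gene Ccr7, was called in Dek_fl and not in Dek_cKO. Over all regions these shares were 6.85% and 3.05%. The 19 included the regions over the starts of Cxcl12, Cxcl10 and Ccr2, a body region of Ccl28 and the region beside Cxcl1. At Ccr2 the peak of Dek_cKO replicate 3 did not reach the start itself. With both lists cut to equal length, 11 of 62 member regions (17.7%) were in Dek_cKO replicate 3 alone and 3 (4.84%) in Dek_fl replicate 3 alone, against 10.9% and 10.8% of all regions. This sets 1 library against 1 other, so no error can be given. In replicates 1 and 2, 6 member regions were called in both Dek_cKO libraries and neither Dek_fl library (4.17%, against 3.02% of all regions), beside Ccl7 and Ccl11, Ccl17, Ccl28, Ccr2, Ccr7 and Cxcl1, and 0 in the opposite way (0.333% of all regions). The list of Dek_fl replicate 1 is the shortest of those 4, and its part in these counts was not tested.

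The chemokine runs on chromosome 11 held different numbers of called regions in every library. The 6 genes Ccl2, Ccl7, Ccl11, Ccl12, Ccl8 and Ccl1, which encode monocyte and eosinophil attractants among others, had 5 regions, or 4.74 per 100 kb of window, and none was called in a replicate 3 list. The 5 genes Ccl5, Ccl9, Ccl6, Ccl3 and Ccl4 had 11 regions, or 10.8 per 100 kb, and 4 of them were called in all 6 libraries. Ccl11, which encodes the eosinophil attractant eotaxin, had a peak in 2 Dek_cKO libraries and 0 Dek_fl libraries, from the single region it shares with Ccl7 (chr11:82048007-82048649), with percentiles of 42.0 and 46.0 in Dek_cKO replicates 1 and 2.

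Nearly all genes that act with the family but fall outside its symbols had a peak nearby. Of 31 such genes, which are atypical receptors, platelet chemokines and signalling genes downstream of the receptors, 29 (93.5%) had a peak within 10 kb in all 6 libraries, against 65.8% of all protein-coding genes, and the scavenging receptors Ackr1 and Ackr4 had one in 2 libraries of each group. A peak lay at the start in all 6 libraries for 14 of the 23 with a start window (60.9%, against 48.0% of all genes). Among these were Ackr3, the second receptor of CXCL12, Pf4, and Rgs2, Dock2, Pik3cg and Rhoh, which act in G protein signalling and migration of blood cells. Over their 60 shared regions, 0 passed the limma test in either direction, the median rank score difference was -0.0439 and 27 were positive. In the fit of replicates 1 and 2 with the replicate block, 1 of 128 regions was called lower in Dek_cKO, near Dock2 (chr11:34543599-34545022). Over all 47491 regions of that fit, 5 were called higher and 3 lower. The Dock2 region had a difference of -1.83 (SE 0.392) and an adjusted p of 0.0270 (limma). Several member regions had that same SE in this fit, so it is largely pooled over regions and does not measure the spread at Dock2. The percentiles of the Dock2 region were 71.5 and 53.9 in Dek_cKO and 90.5 and 99.1 in Dek_fl replicates 1 and 2, with no call in either replicate 3. Without the block the lowest adjusted p of the 128 regions was 0.540.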

How the data were processed

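ATAC-seq cuts accessible chromatin with Tn5 transposase and sequences the fragments. It was analysed from 1 peak list per library, 3 labelled Dek_cKO and 3 labelled Dek_fl, each called on its own library. The tools named in the submitters' processing notes are MACS2, Picard and Bowtie2, and the build is mm10. Their versions, the thresholds and any Tn5 shift are not stated in any source used. Each deposited row has a score, the fold of its summit over background (a ratio), −log10 values of p and q, and the position of the summit. The deposited score equals the −log10 q-value times 10 in replicates 1 and 2, and the −log10 p-value times 10 in replicate 3 of both groups, so replicate number marks a processing batch that holds both groups. Read counts are unknown, so no interval or floor is given for a call.

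From these lists, peaks were merged into union regions (at least 1 bp shared) and fold was used only as a rank within a list. A region is at a gene end within 1 kb of a bound. The gene table and start windows (250 bases before to 50 after the start) are RefSeq's for GRCm38.p6. Fold ranks of the 19683 regions called in all 6 libraries were converted to normal scores, which limma 3.58.1 (R 4.3.3) compared between groups. The p-values were adjusted by Benjamini-Hochberg over all regions, with a threshold of 0.05. The code of the fit was run on simulated data with independent noise and no batch. That run does not show how the fit behaves under the batch difference of these lists. The rest used Python 3.11.15 and pandas 2.3.3. Members, lists and tests were chosen with earlier results of these data known. Named were Cxcr4 and Cxcl12, members with a region called in all 6 libraries (up to 12 with the highest mean percentile in full), those beside a region called in 1 group only, up to 5 regions per direction with the smallest unadjusted p, and members without a peak. One item is counted among the members but not reported here. Runs of genes join members with gaps of up to 300 kb. The pathway list holds 31 genes, and 25 marker genes were checked.

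The correlation of deviations from the group means between libraries of the same number was 0.272, 0.522 and 0.740. Between Dek_cKO replicate 1 and Dek_fl replicate 2 it was 0.573, and between Dek_cKO replicate 2 and Dek_fl replicate 1 it was 0.307. These values do not show that replicates 1 and 2 are pairs by number. The numbers were treated as pairs in an alternative fit only. Alternatives were the replicate block, the batch as a term, ranks of −log10 p, lists of equal length (23809 peaks), a −log10 q-value of at least 10, windows of 0 and 50 kb, peaks that cover 50% of a region, each library left out in turn and, chosen after seeing the data, replicates 1 and 2 alone.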

Additional observations from a re-analysis of the deposited data

How the results depend on the processing

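The count of member regions with a changed rank was 0 in the paired fit with the replicate block, with the batch as a term, with ranks of −log10 p, with each library left out and in replicates 1 and 2 alone, with and without the replicate block. The block brought 3 of 26 member regions under an unadjusted p of 0.05 (limma), all lower in Dek_cKO (Ccl27a start, Ccr10 end and Pf4 near Cxcl5). Over all 19683 shared regions, 585 were higher and 289 lower at that level with the block. The block changed no call of a member and called 1 region of all. The lowest adjusted p of any member region under any of these fits was 0.656. The 10 named regions were picked by their unadjusted p in the reported fit, and the other fits reuse its libraries. The block and the batch term leave each difference unchanged by construction. Of 110 values of these regions under these fits, 107 kept their sign, a count that is therefore no independent check. The exception was the region near Ccl27a at Galt and Il11ra1, which ran between -0.0305 (without Dek_fl replicate 3) and 0.560 (without Dek_fl replicate 1) with a library left out and was -0.295 in replicates 1 and 2 alone, with and without the block. The cause was not tested. The count of member regions called in Dek_cKO only, 1 as reported, was 0 at equal list length and at a −log10 q-value of at least 10, 1 when peaks had to cover 50% of the region, 6 in replicates 1 and 2 alone and 19 in replicate 3 alone. With a library left out it ran between 1 and 6, with 6 without Dek_cKO replicate 3, 4 without Dek_fl replicate 2 and 2 without Dek_cKO replicate 2. In Dek_fl only it was 1 in replicate 3 alone and 0 otherwise. The difference in members with a peak ran between 0.667 and 9.0 under the other settings and between -3.33 and 8.0 with a library left out. Fewer libraries or peaks make such calls easier or harder by construction. List length and threshold, which differ by replicate, limit what an absent call can show.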

Other observations

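Several strong member regions of replicates 1 and 2 had no counterpart in either replicate 3 list. Among regions called in all 4 libraries of replicates 1 and 2 with a mean percentile of fold of 75 or more, 9 of 19 member regions (47.4%) were uncalled in both replicate 3 lists, against 18.4% of the 15316 such regions in all. For members against all regions, the shares were 48.6% and 47.4% for means of 50 to 75, 69.0% and 67.1% for means of 25 to 50, and 66.7% (8 of 12) and 76.0% for means under 25. The strongest of the 9 lies in the body of Ccl28, a chemokine of mucosal surfaces (chr13:119631641-119632246), with percentiles of 94.2 and 98.3 in Dek_cKO and of 84.7 and 94.9 in Dek_fl. The start region of Cx3cl1 (chr8:94771159-94772951) had percentiles of 85.1 and 93.3 in Dek_cKO and of 82.5 and 91.1 in Dek_fl. A region in the body of Ccr6 (chr17:8255057-8256282) had percentiles of 88.8 and 93.7 in Dek_cKO and of 62.9 and 91.3 in Dek_fl. The others lay near Ccl2 and Ccl7, Ccl1, Ccl25, Ccr3 and Xcr1 (2 regions). The median width of the 9 was 1196 bp, against 1674 bp for the member regions of the same level that a replicate 3 list also held. Over all regions the widths were 1234 and 1475 bp. These are widths of merged regions, which a replicate 3 peak can only widen, so the direction is favoured by construction. Whether the threshold, the depth or the cells of replicate 3 bear on the missing calls was not tested.

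Members were short genes, with a median length of 5202 bp against 17370 bp for all protein-coding genes, and the median number of regions per window was 3 for both. Per length of window the members had 9.87 regions per 100 kb and all genes 5.44. Density was also taken per run of genes or lone gene, with overlapping windows merged. Among these the densest were the lone genes Ccr7, at 19.4 regions per 100 kb, and Ccr10, at 17.8. The sparsest with a region was the chromosome 4 run from Ccl27a to Ccl21b, at 1.34. Single genes inside a run were not ranked.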
